A study of Homo sapiens with 4 samples.

Results

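Expression of 5 subunits of the phagocyte NADPH oxidase was examined in the human monocytic leukaemia line THP-1 after transfection with microRNA mimics. The genes were CYBB, CYBA, NCF1, NCF4 and RAC2, 5 of 17687 genes measured, and each was read by 1 probe set whose annotation names that gene alone. The set was chosen by its role and from measured values, since it was already known that NCF1 was higher on the miR-27b-3p array only, so all values of these genes are a description. All cells had received 100 ng/ml of the phorbol ester PMA for 2 days, which makes THP-1 cells adherent and macrophage-like, and were then exposed for 24 h to a mimic carried by Lipofectamine RNAiMAX. The 4 groups had 1 Affymetrix Clariom S array each: a negative control mimic, then let-7d-5p, then miR-27b-3p, then miR-151a-5p. Values of all 4 arrays are given in this order below, and values of the mimic arrays in the same order without the control. By its title the second of these is let-7d-5p, but the design and treatment texts give let-7a-5p, so which mimic that array carries is uncertain. A group of 1 array gives no replicate error, so each difference is between 2 arrays, has no replicate check and carries no p-value.

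The phagocyte oxidase moves electrons from NADPH across the phagosome membrane to oxygen and so makes superoxide, which macrophages and neutrophils use against ingested microbes. Its catalytic core in the membrane, flavocytochrome b558, is a pair of CYBB (gp91phox, NOX2) and CYBA (p22phox). In resting cells the core is silent, and it works only after cytosolic proteins, NCF1 (p47phox) and NCF4 (p40phox) among them, and a Rac GTPase have joined it. Inherited loss of the core or of the cytosolic phox proteins causes chronic granulomatous disease.

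The mature microRNAs that the labels name are shown because their seed, bases 2 to 8 in capitals, guides them to the messages they bind. The sequences are those of RefSeq (GRCh38.p14, plus strand), for let-7d-5p at chr9:94178841-94178862, for let-7a-5p at chr9:94175962-94175983 and for miR-27b-3p at chr9:95085505-95085525.
hsa-let-7d-5p: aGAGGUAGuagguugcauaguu
hsa-let-7a-5p: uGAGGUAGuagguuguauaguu
hsa-miR-27b-3p: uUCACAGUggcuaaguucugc
The let-7d-5p and let-7a-5p seeds were identical, so both names given for the array labelled let-7d-5p share it, and the miR-27b-3p seed was another. That the mimic of this array had the shared seed rests on those names alone. The paper lists let-7a-5p and let-7d-3p among its mimics but no let-7d-5p. The let-7d-3p sequence was not examined here. The miR-151a-5p sequence is not shown.

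Median log2 signals of the 4 arrays lay between 7.24 and 7.29, and 11585 to 11673 genes lay above a background floor of 5.34, the 95th percentile of 348 olfactory receptor genes. Over genes above the floor on either array, differences between mimic and control had standard deviations of 0.30, 0.33 and 0.32 (log2), which describe genes and not cultures. Of 12 macrophage markers, 11 were above the floor on every array, among them CSF1R, CD68, CD14 and MSR1, whereas MRC1 was not. A characteristic in the labels calls the cells lymphocyte-like. Of 10 T and NK cell markers, CD3G (5.79 to 6.07), NKG7 (8.02 to 8.20) and GNLY (10.55 to 11.22) were above the floor on all 4 arrays, CD3E was above it on 2, and CD3D, CD8A and LCK were below it throughout. Of 6 B cell markers, CD79A (7.66 to 8.03), CD79B (6.13 to 6.62) and PAX5 (7.46 to 7.72) were above the floor on all 4 arrays, and MS4A1 was below it.

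NCF1 differed most between the arrays among the 5 subunits. NCF1 is the organiser of the complex, a cytosolic protein that is phosphorylated on activation and then docks on CYBA. Its log2 signals were 11.79 on the control array, 11.75 with let-7d-5p, 12.98 with miR-27b-3p and 11.58 with miR-151a-5p. The miR-27b-3p array was the only high one, and the other 3 lay within 0.21 of each other. Relative to the control array the log2 difference was 1.19 with miR-27b-3p (2.28-fold higher), -0.04 with let-7d-5p and -0.21 with miR-151a-5p (1.16-fold lower). The miR-27b-3p array was also 1.23 above the let-7d-5p array and 1.40 above the miR-151a-5p array (2.35-fold and 2.64-fold). Only 28 of the 17687 genes had a higher difference from the control with miR-27b-3p. The order was miR-27b-3p, control, let-7d-5p and miR-151a-5p, and without replicates the last 3 cannot be separated.

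For scale, 1269 genes had a control signal within 0.5 of that of NCF1. Their log2 differences with miR-27b-3p had a standard deviation of 0.26, and 95% of them lay between -0.58 and 0.47. In either direction, 85.4%, 0.0788% (1 gene) and 33.0% of these genes differed from the control by at least as much as NCF1 did on the mimic arrays. The value of NCF1 with miR-27b-3p was known when the set was chosen, so its place among other genes restates that choice and nothing is read from it. NCF1 has 2 near-identical transcribed pseudogenes, NCF1B and NCF1C, on the same chromosome (7). Whether the probes tell them from NCF1 was not tested, so the signal is uncertain as a measure of the coding gene alone. Fewer cells that express a gene and less RNA of it per cell cannot be told apart in RNA from whole cultures.

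**Figure D1:**
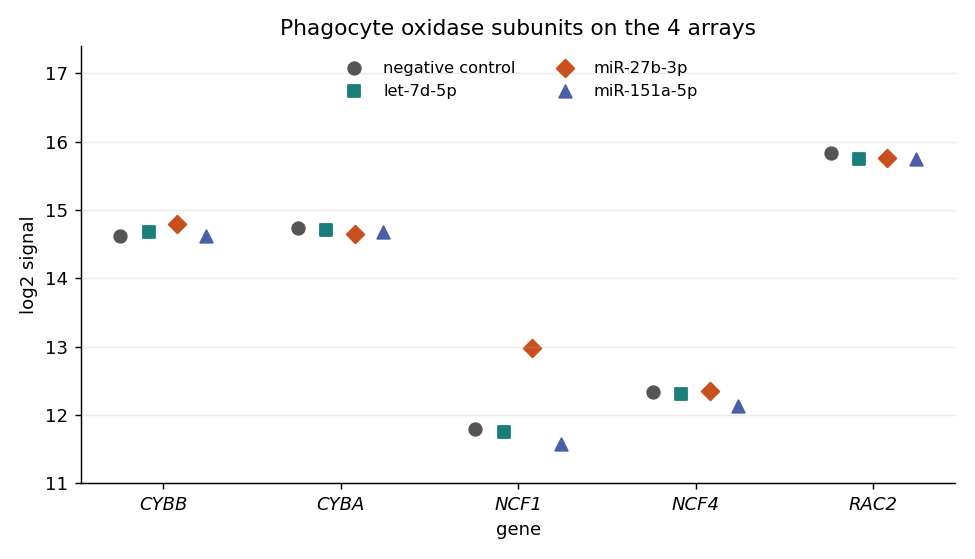
Log2 signal (y axis) of the 5 subunit genes (x axis) on each array, 1 point per array. NCF1 lies at 12.98 on the miR-27b-3p array and between 11.58 and 11.79 on the other 3, while the 4 points of each other gene lie within 0.22 of each other; heights are not comparable between genes.

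The catalytic core hardly differed between the arrays. CYBB, which carries the flavin and the haem groups that pass the electrons, had log2 signals of 14.62 on the control array and 14.68, 14.80 and 14.62 on the mimic arrays. Its highest value was on the same array as that of NCF1, but the difference there was 0.18 (1.13-fold), and 29.7% of 313 genes of similar brightness differed by as much. CYBA, the stabilising partner that offers the docking site for NCF1, had values of 14.73, 14.70, 14.65 and 14.67. Its differences from the control were -0.03, -0.08 and -0.06, and the value with miR-27b-3p was the lowest. In 311 genes of similar brightness 84.2%, 65.9% and 69.5% differed by as much as CYBA. The 2 core genes spanned 0.18 and 0.08 in all, against a median span of 0.37 for the 11112 genes above the floor on all arrays, and 84.9% and 97.4% of those genes spanned more. Most of those 11112 genes are dimmer than the core genes, so these shares are not matched for brightness.

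NCF4, a cytosolic subunit that binds phosphatidylinositol 3-phosphate on the phagosome, had log2 signals of 12.34, 12.30, 12.35 and 12.13. The miR-151a-5p array was the lowest, by 0.21 (1.16-fold lower than the control), the same size as for NCF1 on that array, and 29.6% of 1079 genes of similar brightness differed by as much. With miR-27b-3p the difference of NCF4 was 0.01. RAC2, the Rac GTPase of blood cells that switches the assembled complex on, had signals of 15.83, 15.74, 15.76 and 15.75. All 3 mimic arrays were below the control, at differences of -0.09, -0.07 and -0.08, and lay within 0.02 of each other. In 149 genes of similar brightness 40.3%, 58.4% and 38.3% differed by as much as RAC2.

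At a size of 1.5-fold, 1 of the 5 members was higher with miR-27b-3p, namely NCF1, and 0 were lower, against 5.07% of all genes higher and 4.70% lower. That comparison was used to choose the set, and nothing is read from its count. With let-7d-5p, 0 members were higher and 0 lower, against 4.42% and 3.56% of all genes. With miR-151a-5p, 0 were higher and 0 lower, against 5.29% and 3.57%. The median differences of the 5 members on the mimic arrays were -0.04, 0.01 and -0.08, and the medians of all genes were 0.00, 0.01 and -0.01. All 3 comparisons share the control array.

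**Figure D2:**
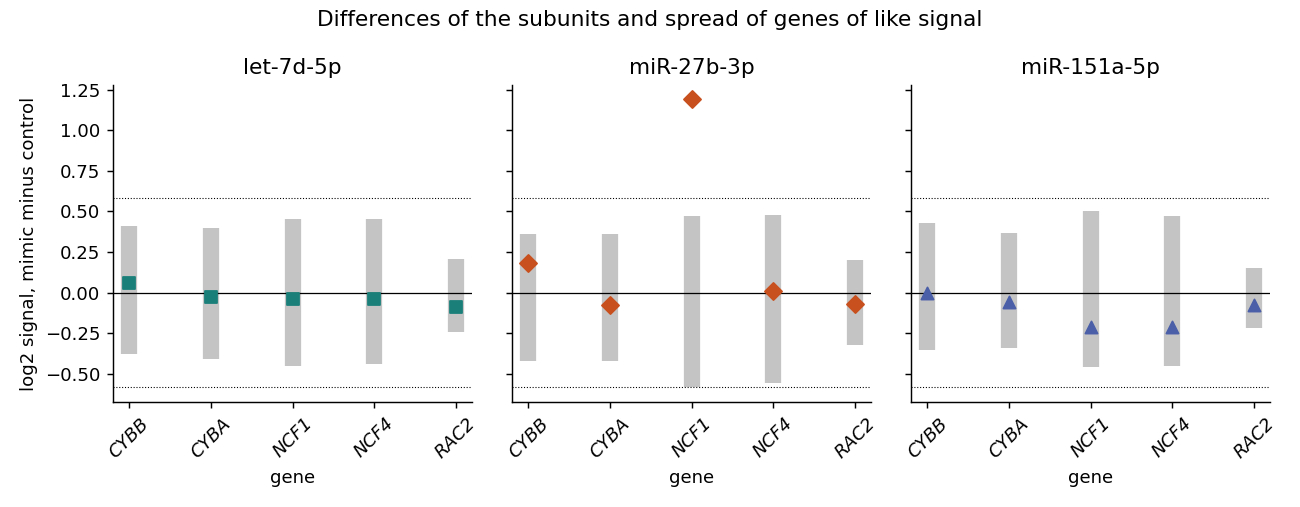
Log2 difference of each subunit gene from the negative control array, with 1 panel per mimic; grey bars hold 95% of the genes with a control signal within 0.5 of that gene, and dotted lines mark 1.5-fold. NCF1 lies at 1.19 with miR-27b-3p, outside its bar, a value known when the genes were chosen; the other points lie within their bars.

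On the miR-27b-3p array, a signal at least 2-fold above each of the other 3 arrays was found for 7 genes, 0.0396% of all genes. NCF1 was the fourth of them by the gap to the next array. It was also the only 1 of the 7 with a control signal above 11. The others were OR9K2, TLR7, SLC15A5, SYT11, PLEKHS1 and GPR82, and SLC15A5 and PLEKHS1 stayed below the floor. These were named after their values had been seen. The count rests on the same values that chose the set, so nothing is read from it or from the place of NCF1 in it.

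The proteins that work with the subunits were measured too. RAC1, the widely expressed relative of RAC2 that can take its place in monocytes, had log2 signals of 15.05 on the control array and 15.33, 15.33 and 15.24 on the mimic arrays. RAC1 was thus higher on each mimic array, by 0.28, 0.28 and 0.19, while RAC2 was slightly lower. For each gene the 3 differences use the same control value, so they are not separate findings. Of the genes above the floor on all arrays, 66.0% spanned more than RAC1 did. Most of those genes are dimmer than RAC1, and no comparison with genes of similar brightness was made for it. RAP1A, a small GTPase that copurifies with flavocytochrome b558, lay 0.16, 0.22 and 0.07 above a control value of 14.93. CYBC1 (EROS), the chaperone that the core needs to mature, lay at 12.59, 12.53, 12.48 and 12.49. None of these 3 genes differed from the control by 1.5-fold on any array.

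The start of the gene was compared for the subunits with a promoter in the RefSeq table (250 bases before to 50 after the start), which were CYBB, CYBA and NCF1. Stretches of 130 bases before the start are shown for NCF1 (GRCh38.p14, chr7:74773881-74774010, plus strand) and CYBB (chrX:37779929-37780058, plus strand), an organiser and a core subunit that differed unequally here, because the myeloid factor PU.1 and interferon regulatory factors are known to act on both genes. Capitals mark matches on either strand to GAGGAA (the PU.1 core), AANNGAAA (a core bound by interferon regulatory factors) and CCAAT.
NCF1: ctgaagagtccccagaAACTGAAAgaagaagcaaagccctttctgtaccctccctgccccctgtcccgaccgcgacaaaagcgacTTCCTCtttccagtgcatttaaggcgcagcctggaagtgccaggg
CYBB: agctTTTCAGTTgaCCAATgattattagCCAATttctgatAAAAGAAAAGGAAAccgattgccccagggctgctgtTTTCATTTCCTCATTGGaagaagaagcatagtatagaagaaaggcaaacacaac
Each held 1 PU.1 core on the reverse strand, which began 45 bases before the start in NCF1 and 48 in CYBB. NCF1 had 1 match to AANNGAAA, which began 114 bases before the start, and no CCAAT match. CYBB had 5 matches to AANNGAAA and 4 to CCAAT in the whole window, and some of them overlapped each other or the PU.1 core. CYBA had no match to any of the 3 motifs. Of 35116 promoters of the same length, 27.9% held GAGGAA, 22.8% AANNGAAA and 34.6% CCAAT on either strand. The motifs were picked with the sequences in view, and a match is not a bound site.

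The genes of these factors were then examined. SPI1, which encodes PU.1, had log2 signals of 13.61, 13.55, 13.55 and 13.46. IRF8, a partner of PU.1 in monocytes, was at 8.86, 8.76, 9.17 and 8.52, so that it was highest with miR-27b-3p (0.31) and lowest with miR-151a-5p (-0.34). IRF1, an interferon-induced relative, was at 9.63, 9.65, 9.87 and 9.54. IRF8 and IRF1 had the same highest and lowest arrays as NCF1, at a smaller size. CUX1, another measured regulator that was named after its values had been seen, did too, at 11.65, 11.73, 11.81 and 11.37. Whether any of these factors has a part in the NCF1 difference was not tested. Of SPI1, IRF8 and IRF1, none differed from the control by 1.5-fold, although IRF8 did so between its highest and lowest arrays. Of 13 measured regulators of the oxidase genes or of myeloid maturation, 0 passed 1.5-fold with miR-27b-3p or miR-151a-5p. With let-7d-5p 1 did, GATA1, an erythroid and eosinophil factor, which was higher by 0.71 (6.74 against 6.03). Of all genes, 4.42% were higher and 3.56% lower with let-7d-5p, 5.07% and 4.70% with miR-27b-3p, and 5.29% and 3.57% with miR-151a-5p. With 13 genes nothing is read from these counts. The medians of the list were 0.08, 0.04 and -0.09.

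By the root mean square distance between values centred on the mean of each gene over the 4 arrays, the genes nearest to NCF1 were TLR7, IBSP, CD84, PLVAP and GPR82. TLR7, an endosomal receptor of single-stranded RNA, was the nearest, at a distance of 0.14, with log2 signals of 8.99, 8.80, 10.31 and 9.01. IBSP (a bone matrix sialoprotein), CD84 (a leukocyte receptor of the SLAM family), PLVAP (a protein of endothelial diaphragms) and GPR82 (an orphan receptor) were 0.83, 0.78, 0.80 and 1.07 above the control with miR-27b-3p. All 5 were highest on that array, which follows from picking them by likeness to NCF1, so nothing is read from it. The genes nearest to CYBB were ATMIN, ABHD12, TLR2, KPNA6 and BNIP3, at distances of 0.01, with differences of 0.15 to 0.19 with miR-27b-3p. TLR2, a surface receptor of bacterial lipoproteins, was at 13.09, 13.18, 13.28 and 13.09. Likeness over 4 arrays is a description, drawn from the 11112 genes above the floor on all of them.

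**Figure D3:**
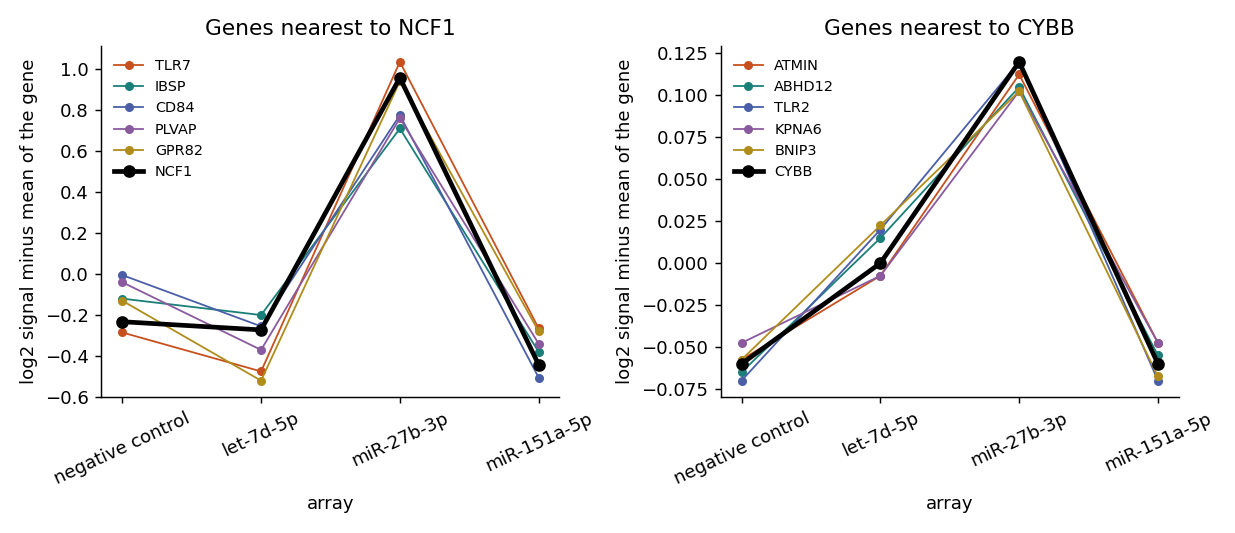
Log2 signal minus the mean of the gene (y axis) on the 4 arrays (x axis) for NCF1 and CYBB (thick black lines) and for the 5 genes nearest to each (thin lines); lines join the arrays only to guide the eye. The y axes differ: NCF1 reaches 12.98 on the miR-27b-3p array against 11.79 on the control, whereas CYBB spans 0.18.

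Genes that switch the oxidase on were next compared. Of 23 measured kinases, Rac exchange factors, lipases, GDP dissociation inhibitors and channels, 2 were at least 1.5-fold lower with miR-27b-3p and 0 were higher, against 4.70% and 5.07% of all genes. With so few genes nothing is read from these counts. The 2 lower genes were SYK, the kinase behind Fc receptors and Dectin-1, which was at 10.08, 10.11, 9.39 and 10.07, and VAV2, an exchange factor for Rac, at 8.61, 8.63, 7.94 and 8.58. Both were low on the array on which NCF1 was high, and on that array only. With miR-151a-5p, ARHGDIA, the inhibitor that keeps Rac in the cytosol, was lower by 0.84 (1.79-fold; 13.42 against 14.26). Its relative in blood cells, ARHGDIB, differed by -0.05. The Rac exchange factor TIAM1 was higher there by 0.82 but lay below the floor on every array. PRKCD, a protein kinase C that phosphorylates NCF1, was at 13.48, 13.44, 13.28 and 13.27, and PLA2G4A, the cytosolic phospholipase A2 that docks on the oxidase, was highest with miR-27b-3p (0.53). HVCN1, the proton channel that balances the charge of the electrons, lay between 10.58 and 10.74. PRKCD, PLA2G4A and HVCN1 did not pass the size rule and were named after their values had been seen. With let-7d-5p 0 of the 23 genes passed 1.5-fold, against 4.42% of all genes higher and 3.56% lower, and nothing is read from that either. The medians for the 3 mimics were -0.04, -0.06 and -0.13.

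Of 18 measured receptors and adaptors that trigger the oxidase, 12, 11 and 11 lay above the floor on at least 1 array of the comparison with each mimic. CLEC7A (Dectin-1, the receptor of fungal beta-glucan that signals through SYK) was higher with miR-27b-3p by 0.62, at 9.12 against 8.50, with 8.97 for let-7d-5p and 8.15 for miR-151a-5p. FPR2, a formyl peptide receptor, was 5.91 with let-7d-5p and 4.85, below the floor, on the control array. Its relatives FPR1 and FPR3, named after their values had been seen, were below the floor on all 4 arrays, at -1.05 and 0.97 with miR-27b-3p. The integrin chains ITGAM and ITGB2 and the adaptors FCER1G and TYROBP differed by no more than 0.24 on any array. Counted over all 18, 2 genes were 1.5-fold higher and 1 lower with let-7d-5p, 2 and 1 with miR-27b-3p, and 1 and 0 with miR-151a-5p. The shares of all genes were 4.42% higher and 3.56% lower, 5.07% and 4.70%, and 5.29% and 3.57%. Of the genes counted, only FPR2 with let-7d-5p and CLEC7A with miR-27b-3p were above the floor on an array of their comparison. The medians were 0.06, -0.01 and -0.03.

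Enzymes that remove superoxide and peroxide were compared next. Of 22 measured genes, 12 were lower than the control and 9 higher with let-7d-5p, 16 and 5 with miR-27b-3p, and 15 and 7 with miR-151a-5p. The shares of all genes that were higher were 49.2%, 50.3% and 47.3%. With 22 genes and 1 control array nothing is read from these counts. The medians were -0.01, -0.16 and -0.06, and those of all genes 0.00, 0.01 and -0.01. Only HMOX1 passed 1.5-fold, with miR-27b-3p (-0.67) and with miR-151a-5p (-0.60), from 12.07 on the control array, so that 1 of 22 genes was called lower on each of these arrays, against 4.70% and 3.57% of all genes. HMOX1 encodes haem oxygenase 1, which degrades haem and is induced by oxidants, and does not itself remove superoxide. The thioredoxin of mitochondria, TXN2, was at -0.53 with miR-27b-3p, and the peroxiredoxins PRDX4 and PRDX2 were at -0.47 and -0.46, while GCLC, the catalytic subunit of glutathione synthesis, was at 0.58. These 4 were named after their values had been seen.

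Among 9 measured enzymes of NADPH supply and the pentose phosphate pathway, the medians were 0.01, -0.15 and -0.14, and 1 gene passed 1.5-fold, lower with miR-27b-3p, against 4.70% of all genes. RPIA, the isomerase of ribose 5-phosphate, was 2.06-fold lower with miR-27b-3p (-1.04), with log2 signals of 7.98, 8.06, 6.94 and 7.82. RPIA belongs to the branch of the pathway that makes no NADPH. PGD, which does make NADPH, was at 12.63, 12.57, 12.61 and 12.47, and ME1, the cytosolic malic enzyme, was 0.58, 0.50 and 0.21 above a control value of 11.38.

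The other NADPH oxidases were near or under background. Of 9 measured genes, NOX4, NOX3, DUOX1, DUOX2, NOXO1 and DUOXA2 lay below the floor on all 4 arrays. RAC3 and NOXA1 were above it on every array, at 6.39 to 6.57 and 5.53 to 6.03. NOX1, the catalytic subunit of colon epithelium, passed the floor on the miR-151a-5p array only, at 5.85 against 4.96. NOX3 (1.13 with let-7d-5p and 0.60 with miR-151a-5p) and DUOXA2 (-0.83 with miR-27b-3p) also passed 1.5-fold, all below the floor, and were named after their values had been seen.

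**Figure D4:**
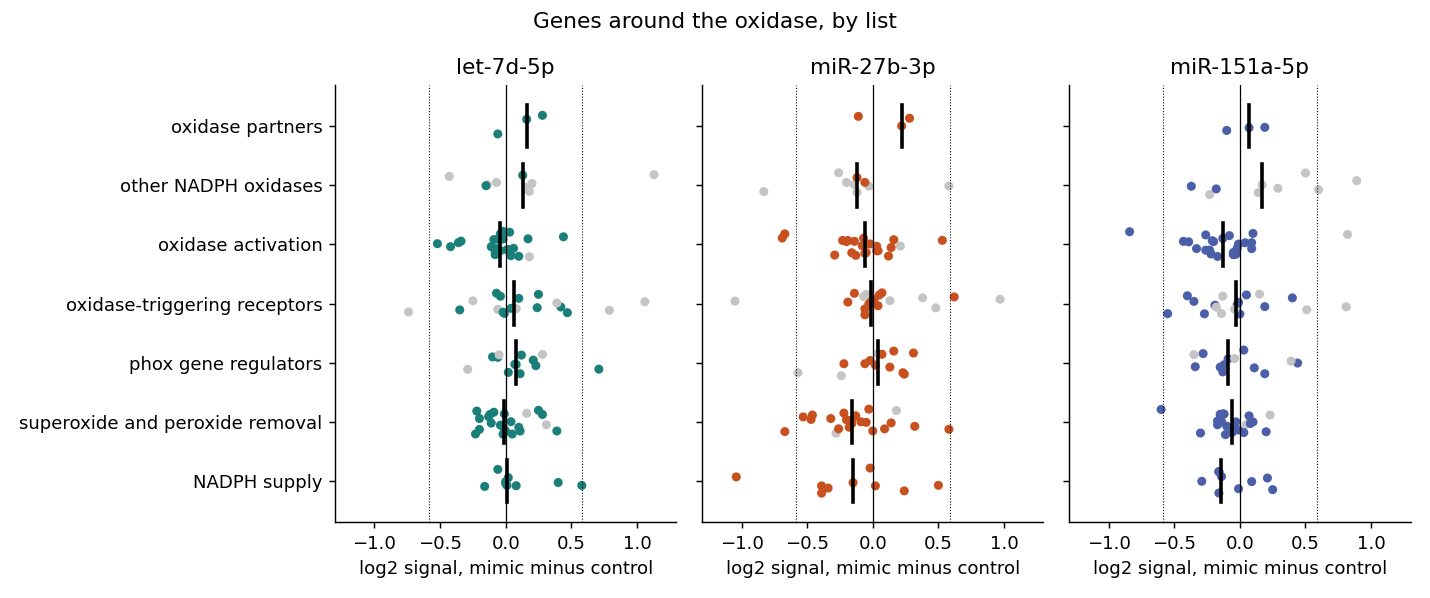
Log2 difference from the negative control array (x axis) of each gene in 7 lists around the oxidase (y axis), with 1 panel per mimic; coloured points lie above the floor on all 4 arrays, grey points do not, black bars are list medians and dotted lines mark 1.5-fold. Coloured points past the lines are few: RPIA, SYK, VAV2, HMOX1 and CLEC7A with miR-27b-3p, ARHGDIA and HMOX1 with miR-151a-5p, and GATA1 with let-7d-5p.

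Markers of other cells were set beside the result for NCF1, which neutrophils also express. Of 9 measured neutrophil and granule genes, 4 were above the floor on each array, and the log2 of the summed signal of all 9 was 12.91, 12.91, 12.43 and 12.93. AZU1, the granule protein azurocidin, was at 12.76, 12.77, 12.24 and 12.79 and gave most of these sums. They were lowest on the array on which NCF1 was highest, and MPO, FCGR3B and CEACAM8 were below the floor throughout. The summed macrophage markers lay between 17.96 and 18.13, with 18.00 on the miR-27b-3p array. T and NK cell markers summed to between 10.93 and 11.48, B cell markers to between 9.08 and 9.26, epithelial markers to between 9.26 and 9.76, with the highest value with miR-27b-3p, and fibroblast and endothelial markers to between 14.01 and 14.19. Most of the T and NK cell sums came from GNLY (10.55 to 11.22). KRT8 (8.92 to 9.53) gave most of the epithelial sums, and PECAM1 (13.95 to 14.13) most of the fibroblast and endothelial sums. EPCAM, CDH1, LUM, CDH5 and KDR were below the floor throughout. The part of cell composition in the NCF1 difference was not tested.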

How the data were processed

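The values deposited by the authors were log2 signals per probe set from 4 Affymetrix Clariom S arrays. The submitters' processing notes name RMA and Transcriptome Analysis Console 4.0. RMA corrects background, equalises the arrays and summarises probes, so a shift of all genes on an array would be removed. No source used here gives the genome build of the probes, so no coordinates of probes are printed; those of microRNAs and promoters are from RefSeq. Of 21448 probe sets, 17709 had 1 gene symbol, 0 several and 3739 none. By gene identifier, all 17709 matched RefSeq (GRCh38.p14) and 0 symbols changed. The probe set with the highest mean stood for each of the 20 genes with several.

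Differences were mimic minus control. With 1 array per group there was no test; precision is limited by the number of arrays. The size rule was 1.5-fold. Named were the 5 members, RAC1, RAP1A and CYBC1, in each other list and comparison at most the 4 genes furthest past 1.5-fold and above the floor on at least 1 of the 2 arrays, and the 5 genes nearest to NCF1 and to CYBB. Exceptions are marked. SPI1, IRF1, IRF8, markers and list members given as examples were picked by role with their values seen. The members and lists (7 pathway, 6 marker) were chosen with earlier results of these data known. Alternatives were 2-fold and 3-fold, quantile normalization, median centring, a pseudocount of 16, the mean of several probe sets, a floor, list means and the other mimic arrays as reference. The difference and normalization steps were tested on simulated data. Python 3.11.15, numpy 2.4.6, pandas 2.3.3 and matplotlib 3.10.9 were used.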

Additional observations from a re-analysis of the deposited data

How the results depend on the processing

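As there were no replicates, a value was taken to have moved when it differed from the value as deposited by more than the standard deviation of the differences over genes above the floor. With quantile normalization, median centring, a pseudocount or the mean of several probe sets, no member difference moved by more than 0.04. NCF1 with miR-27b-3p stayed between 1.19 and 1.20. Some values near 0 changed sign, such as CYBA with let-7d-5p (-0.03, up to 0.01). With the mean of the other mimic arrays as reference, NCF1 was at 1.31 with miR-27b-3p, at -0.53 with let-7d-5p and at -0.79 with miR-151a-5p, since that mean then holds the miR-27b-3p array. The count of members 1.5-fold lower with miR-151a-5p was then 1 in place of 0. At 3-fold, 0 members were higher with miR-27b-3p, against 0.0396% of all genes, and at 2-fold 1 was, against 0.605%. Of 84 alternative list medians 1 moved, that of the other NADPH oxidases with miR-151a-5p, from 0.17 to -0.18 when genes below the floor were left out. No paired analysis was possible because each group held 1 array.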
